A study of Homo sapiens with 21 samples.

Results

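The cytosolic ribosomal protein genes are the genes for the proteins of the ribosome that works in the cytoplasm. They were taken from the deposited gene count table as the protein-coding genes off the Y chromosome whose symbols follow the RPL and RPS naming, with RPSA, RPLP0, RPLP1 and RPLP2. The rule found 84 of 58735 genes: 43 for the large subunit, 31 for the small subunit, 3 for the stalk of the large subunit, and 7 paralogues, whose symbols end in L or L1. Ribosomal proteins outside that naming, such as FAU, are described apart from the members. The members lie on 21 chromosomes, and their coding sequences run from 78 to 1284 bases.

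A ribosome holds single copies of most of these proteins around its ribosomal RNA, and the 2 subunits are assembled in the nucleolus before export. The messenger RNAs of vertebrate ribosomal proteins begin with a C followed by a run of pyrimidines, the 5′ terminal oligopyrimidine (TOP) tract. Through that tract the kinase complex mTORC1 and the RNA-binding protein LARP1 govern their translation and stability together. Some free ribosomal proteins, RPL5 and RPL11 among them, bind MDM2 when ribosome assembly fails.

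The cells, labelled HepG2, a line from a human liver tumour, had been kept for 6 h in serum-free medium with coumarin at 0, 0.001, 0.01, 0.1, 1, 10 or 100 µM. Each of the 7 groups had 3 libraries of poly(A)-selected RNA, which the design text calls biological replicates, and total gene counts were 27984517 to 43704155 per library. All groups, the untreated control included, were without serum. Hepatocyte transcripts were nearly absent. Of 12 markers, ALB, FGB and SERPINA1 had no read and none reached 1 CPM (counts scaled to a common library size). The 12 summed to 0.0268 to 0.231 CPM. Of 5 biliary markers, KRT7 alone reached 1 CPM and EPCAM had no read, and the 5 summed to 1110 to 1350 CPM. Of 6 fibroblast markers, COL1A1, COL3A1 and PDGFRB reached 1 CPM, and the 6 summed to 952 to 1090 CPM. The label HepG2 is given as it stands, and the identity of the cells was not tested. In bulk samples, fewer cells of a type and less RNA per cell cannot be told apart.

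Start sites of the members were looked up in RefSeq (GRCh38.p14), where 67 of the 84 had an entry. A run of at least 5 bases C or T that began with a C within 5 bases of an annotated start, on the strand of the gene only, was present at 54 of the 67, or 80.6%. The same run was found at 25.2% of all 27305 genes in the table and at 21.6% of 74 genes for mitochondrial ribosomal proteins. The windows below are those of members with an entry that were called in any comparison described below, then of RPL41 and RPL39, short members that were not called. RPL37 was also called but had no entry. Each holds 30 bases, with the annotated start as the sixteenth base, and capitals mark the run of pyrimidines.
RPS29: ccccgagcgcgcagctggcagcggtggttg
RPS28: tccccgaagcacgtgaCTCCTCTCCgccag
RPL38: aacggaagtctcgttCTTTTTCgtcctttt
RPS27: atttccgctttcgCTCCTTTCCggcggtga
RPS21: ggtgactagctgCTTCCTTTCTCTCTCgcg
RPL37A: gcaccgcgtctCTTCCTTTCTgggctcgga
RPL17: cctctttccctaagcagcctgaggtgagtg
RPLP1: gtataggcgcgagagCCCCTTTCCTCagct
RPL22L1: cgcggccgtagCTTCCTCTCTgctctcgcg
RPS26: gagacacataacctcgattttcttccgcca
RPS15: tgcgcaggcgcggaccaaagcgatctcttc
RPL36: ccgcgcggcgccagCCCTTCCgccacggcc
RPL41: cggaacttcgCCTTTCTCTCggccttagcg
RPL39: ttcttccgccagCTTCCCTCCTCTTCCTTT
The windows of RPS29 (chr14:49598696-49598725), RPL17 (chr18:49492451-49492480), RPL22L1 (chr3:170870181-170870210) and RPL39 (chrX:119791616-119791645) are on the minus strand. Those on the plus strand are RPS28 (chr19:8321481-8321510), RPL38 (chr17:74203663-74203692), RPS27 (chr1:153990747-153990776), RPS21 (chr20:62387088-62387117), RPL37A (chr2:216498829-216498858) and RPLP1 (chr15:69452803-69452832). RPS26 (chr12:56041903-56041932), RPS15 (chr19:1438381-1438410), RPL36 (chr19:5690280-5690309) and RPL41 (chr12:56116618-56116647) are also on the plus strand. Of the 12 members called in any comparison that had an entry, 8 held the run, or 66.7%, and of the other 55 members 46 did, or 83.6%. RPS29, RPL17, RPS26 and RPS15 had no such run within 5 bases of the annotated start. Runs that begin farther from it are not marked, and the starts used in these cells were not tested.

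Ribosomal protein transcripts made up 6.39% to 7.34% of all counts in a library. By the authors' FPKM, the level per length and depth, the members ran from 0.00182 to 1117 as means of the 21 libraries. RPS12, a small-subunit protein, was highest at 1117 ± 49 FPKM (SD, n = 21), followed by RPL41, the shortest member, at 1075 ± 60. RPL13A stood at 1062 ± 61 and RPL8 at 1062 ± 76, and these neighbours in the order did not differ beyond their spread. RPS2 (838 ± 46 FPKM), RPL19 (786 ± 31), RPS27 (742 ± 67), RPS18 (719 ± 28), RPL35 (583 ± 44), RPL7A (580 ± 21) and RPS21 (575 ± 38) were also among the highest 12.

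At the other end, RPL10L, a paralogue of RPL10 known from the testis, had 1 read in all libraries together. RPL3L, a paralogue of RPL3 known from skeletal and heart muscle, had 98, and neither could be tested. The core small-subunit gene RPS10 was next at 1.71 ± 0.23 FPKM, then RPL36A at 3.41 ± 0.36 and RPS27L at 7.66 ± 0.35. RPS10, RPL36A and RPL17 each lie inside a readthrough gene on the same strand (RPS10-NUDT3, RPL36A-HNRNPH2 and RPL17-C18orf32), which held 13, 6 and 15 reads in all, so their levels are uncertain where the authors' counting could drop shared reads. With these, 15 members overlap a gene on the same strand, small RNAs left out, and the same limit applies to them. FPKM used the full exonic length of every isoform (9845 bases for RPS29, whose coding sequence has 171), so such genes are understated. Within a group the coefficient of variation of CPM had a median of 4.42% over the 82 tested members, 2.36% (RPL10A) to 14.9% (RPS10). It was 6.68% over all 16196 genes tested and 3.43% over the 102 other genes at or above the members' median level of 796 CPM, so the median of abundant genes was below that of the members.

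Coumarin up to 1 µM left no ribosomal protein gene called, where called means an adjusted p below 0.05 in edgeR's quasi-likelihood test over 16196 genes. The background was 0.00% of genes at each of 0.001, 0.01, 0.1 and 1 µM, and DESeq2 and limma called no member at these doses either. At an unadjusted p below 0.05, 24 of 82 members passed at 0.001 µM (background 8.21%), 15 at 0.01 µM (8.74%), 10 at 0.1 µM (6.09%) and 0 at 1 µM (3.76%). Members were nonetheless a little above control as a body at each treated dose. Their median log2 fold change was 0.072, 0.051, 0.062, 0.014, 0.105 and 0.042 from the lowest to the highest dose, while the median over all genes tested was between -0.003 and 0.00285.

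The highest median was at 10 µM. There, 39 of 82 members had all 3 libraries above all 3 controls, against 8.78% of genes tested. The corresponding counts were 4 at 0.001 µM (background 5.56%), 15 at 0.01 µM (7.35%), 8 at 0.1 µM (4.46%), 2 at 1 µM (4.26%) and 15 at 100 µM (13.1%). RPLP1 alone was called at 10 µM, as higher (background 0.241% higher and 0.0803% lower), and of the members below control 1 passed an unadjusted p of 0.05 (background 5.24%). The large-subunit, small-subunit and stalk genes had medians of 0.11, 0.104 and 0.149 at 10 µM. The members' summed share of counts was 6.63% ± 0.23 in control, 7.02% ± 0.09 at 10 µM and 6.86% ± 0.06 at 100 µM (SD, n = 3 each), so the 10 µM libraries, at 7.01%, 6.93% and 7.11%, all lay above the controls at 6.84%, 6.39% and 6.66%.

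**Figure D1:**
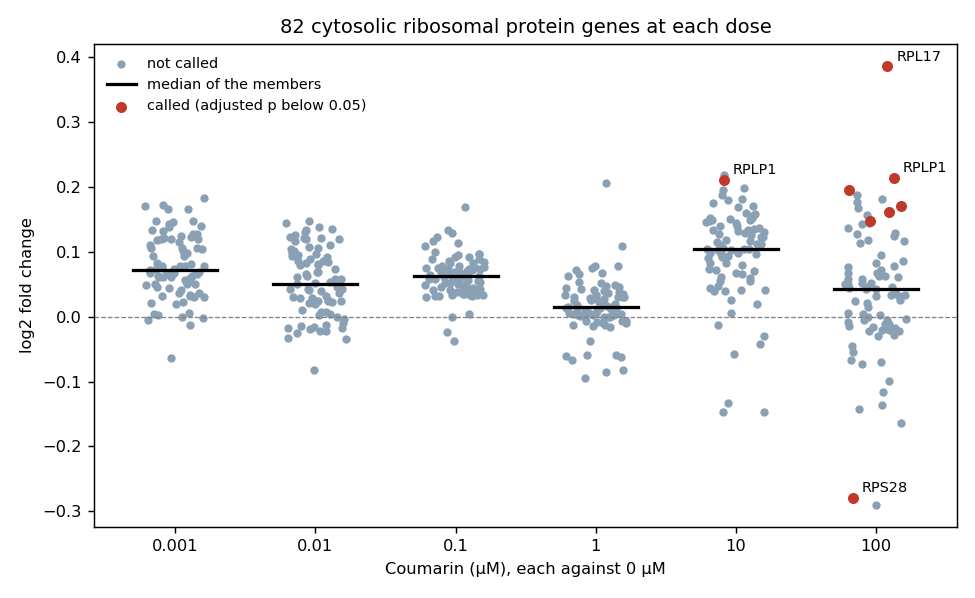
Each point is 1 of 82 tested ribosomal protein genes, at its log2 fold change (vertical axis) at each coumarin dose against 0 µM; black bars are medians and red points passed an adjusted p of 0.05. Medians stand between 0.014 at 1 µM and 0.105 at 10 µM, and at 100 µM the genes spread from -0.29 to 0.39.

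This shift moved with a feature of each library, its length trend. That trend is the slope of a gene's log2 CPM, relative to its mean over the libraries, on log2 coding length, over 10575 genes that are not members. It was most positive in control replicate 2, at 0.0372 log2 units per doubling, and the members' median there was the lowest of the 21 libraries, at -0.115. The opposite ends were 0.1 µM replicate 1, with a trend of -0.0389 and a member median of 0.065, and 0.001 µM replicate 3, with -0.0285 and 0.119. The other controls stood at trends of 0.0018 and 0.0165 with member medians of 0.012 and -0.042.

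The 3 libraries at 10 µM had trends of -0.0094, -0.0181 and -0.0158 and member medians of 0.054, 0.029 and 0.074. Those at 100 µM had trends between -0.0065 and -0.0029 and member medians between -0.027 and -0.001, beside 0.009 in 0.01 µM replicate 1, whose trend was -0.0054. With an offset for coding length, chosen after seeing the data, the medians from the lowest to the highest dose were 0.044, 0.019, 0.026, 0.002, 0.058 and -0.00013. Without control replicate 2 they were 0.047, 0.021, 0.028, -0.019, 0.084 and 0.0032.

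**Figure D2:**
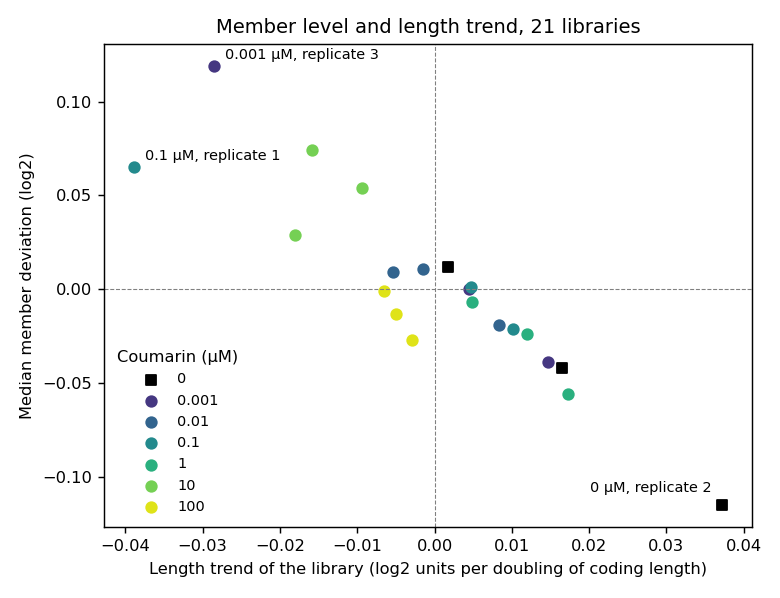
Each point is a library, placed by its length trend (horizontal axis, log2 units per doubling of coding length, genes that are not members) and by the median deviation of the 82 members from their own means (vertical axis, log2); squares are controls. Control replicate 2 lies at 0.0372 and -0.115, and 0.001 µM replicate 3 at -0.0285 and 0.119.

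At 100 µM, 7 members were called. Those that rose were RPL17, RPLP1, RPL22L1, RPS26, RPS15 and RPL36, which is 7.32% of the members where 3.77% of all genes tested rose. RPS28 fell, which is 1.22% of the members where 4.82% of all genes fell. Over the 7 groups together 6 were called, RPS28, RPL17, RPS21, RPL22L1, RPLP1 and RPS26 (background 4.65%), and the next smallest p were those of RPL37A, RPL23A, RPS15 and RPL35A (adjusted p of 0.062 to 0.114, edgeR). Summed CPM of 6 fibroblast markers was 952 to 1000 at 100 µM and 1030 to 1050 in control. Most of the sum was COL3A1, at 952 ± 5.4 CPM in control and 884.5 ± 19.4 at 100 µM (SD, n = 3 each). Of 5 tested at 100 µM, 2 fell, COL3A1 (log2 fold change -0.11, adjusted p = 0.0405, edgeR) and PDGFRB (-0.27, adjusted p = 0.000919). COL1A1 (0.20, adjusted p = 0.054), DCN (0.10) and LUM (-0.32) did not pass. The part of these markers in the results above was not tested.

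RPL17, a large-subunit protein near the mouth of the exit tunnel (chromosome 18, 49488453 to 49492523, GRCh38), changed most among the called members. Its level was 36.8, 37.3 and 37.2 CPM in control, and 37.0, 36.6 and 40.2 at 0.001 µM. It was 40.0, 38.6 and 40.1 CPM at 0.01 µM, 40.8, 37.3 and 38.2 at 0.1 µM, and 35.2, 35.8 and 46.2 at 1 µM. It reached 38.5, 45.6 and 45.3 CPM at 10 µM and 49.9, 47.5 and 48.0 at 100 µM, where no library overlapped with any other group.
The log2 fold change at 100 µM was 0.39 (SE 0.07, adjusted p = 0.00113, edgeR), and the slope over the 6 treated doses was 0.062 per 10-fold dose (SE 0.012, adjusted p = 0.00262). The single library at 1 µM that stood among the 10 µM values was replicate 3. RPL17 was called at 100 µM under all 20 alternatives and for slope under all 31. Its level is low beside the members' median of 796 CPM, and it overlaps RPL17-C18orf32 on the same strand. If the counting dropped shared reads, the change rests on the reads that were left. Whether dropped reads would change alike was not tested. C18orf32, the neighbour in its readthrough gene, did not pass (log2 fold change 0.04, SE 0.17, adjusted p = 0.918).

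RPLP1 and RPLP2 form the acidic dimers of the stalk, which recruit elongation factors, and RPLP0 anchors them. RPLP1 stood at 1333, 1221 and 1378 CPM in control and at 1367, 1399 and 1531 at 0.001 µM. It was at 1433, 1421 and 1422 CPM at 0.01 µM, 1471, 1353 and 1359 at 0.1 µM, and 1327, 1356 and 1467 at 1 µM. Levels were 1423, 1555 and 1574 CPM at 10 µM and 1545, 1542 and 1475 at 100 µM. The 0.01, 10 and 100 µM groups lay above every control library. The log2 fold change was 0.21 at 10 and at 100 µM (SE 0.05, adjusted p = 0.041 at 10 µM and 0.00375 at 100 µM, edgeR). Over the treated doses the slope did not pass (0.020, SE 0.008, adjusted p = 0.1996, edgeR). The call at 100 µM held under all 20 alternatives and that at 10 µM under 12 of 20, with control replicates 1 and 2 and 10 µM replicates 2 and 3 each needed for it. RPLP2 was at 761, 684 and 775 CPM in control and 842, 830 and 770 at 100 µM, overlapping, and did not pass (0.14, adjusted p = 0.0588); RPLP0 did not pass (-0.0049, adjusted p = 0.963). Differences among the 3 stalk genes were not tested.

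RPS26 lines the exit channel for messenger RNA and is mutated in Diamond-Blackfan anaemia. It measured 555, 532 and 538 CPM in control and 599, 633 and 597 at 100 µM, without overlap (log2 fold change 0.17, SE 0.04, adjusted p = 0.0117, edgeR). RPS15, in the head of the small subunit, measured 535, 476 and 525 CPM in control and 583, 581 and 555 at 100 µM (0.16, SE 0.04, adjusted p = 0.0182). RPL36, a large-subunit protein, measured 395, 350 and 409 CPM in control and 436, 434 and 408 at 100 µM, with 1 library overlapping (0.15, SE 0.05, adjusted p = 0.0438).
These calls were less stable. Of 20 alternatives, RPS26 and RPS15 were called under 15 each and RPL36 under 10. Without control replicate 2 or 100 µM replicate 2 none of the 3 was called. At 0.001, 0.01, 0.1 and 1 µM the log2 fold changes of RPS15 were 0.12, 0.12, 0.13 and 0.066. Those of RPS26 were 0.051, 0.086, 0.096 and 0.034, and those of RPL36 0.068, 0.065, 0.078 and 0.0053, none called. Slopes over the treated doses did not pass for RPS26, RPS15 and RPL36 (0.024, 0.0082 and 0.016, adjusted p of 0.0652, 0.661 and 0.298, edgeR).

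Over dose, short members fell. Among the 6 treated doses, 7 members had a falling slope, 8.54% of the members where 2.52% of all genes tested fell, and RPL17 and RPL22L1 had a rising one, 2.44% where 1.93% rose. The 7 were RPS29, RPS28, RPL38, RPS27, RPL37, RPS21 and RPL37A, and they are all of the members outside the paralogues with 171 to 294 coding bases. RPS29, RPS27, RPL37 and RPL37A are zinc-binding proteins; RPS28 lies by the exit channel for messenger RNA, and RPL38 is known from the skeletal patterning of the mouse. Among the markers of other cell types, KRT7 (slope -0.029, adjusted p = 0.015, edgeR) and PDGFRB (-0.050, adjusted p = 0.000351) also fell over dose, and COL3A1 (-0.010) and COL1A1 (0.0026) did not pass; their part in these slopes was not tested.
Shorter still, RPL41 (78 bases), RPL39 (156) and its paralogue RPL39L (156) did not pass, with slopes of 0.0042, -0.0058 and 0.0044. Nor did the paralogue RPS27L, at 255 bases the same length as RPS27 (-0.0047, adjusted p = 0.849).

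**Figure D3:**
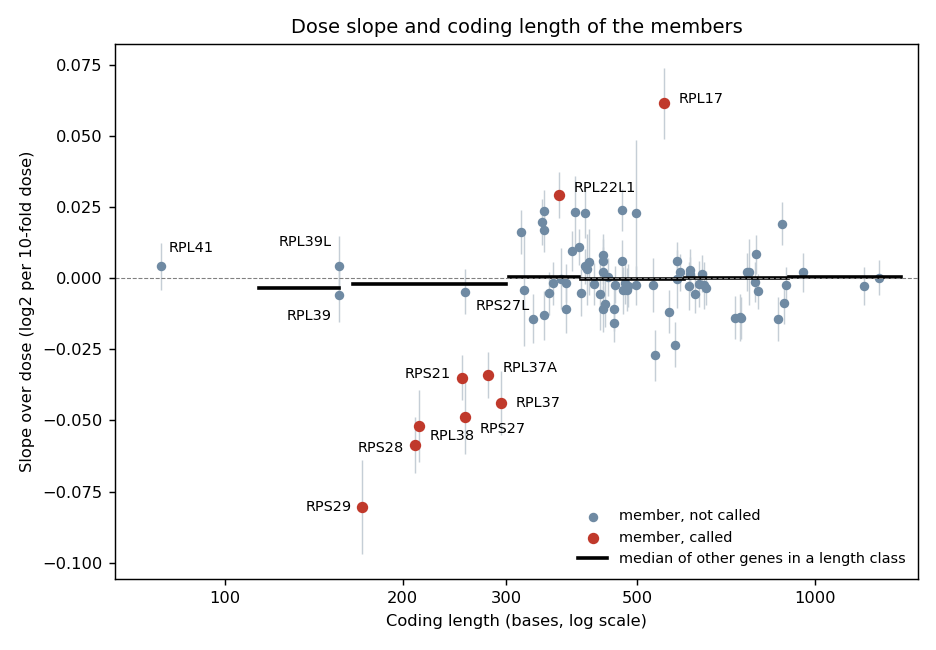
Each point is a tested member, placed by coding length (horizontal axis, bases, log scale) and by its slope over the 6 treated doses (vertical axis, log2 units per 10-fold dose, bars are standard errors); red points passed an adjusted p of 0.05 and black bars are medians of other protein-coding genes. The 7 red points between 171 and 294 bases lie between -0.081 and -0.034, while RPL41 at 78 bases lies at 0.0042.

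RPS29 (chromosome 14, 49570984 to 49599164) had the steepest fall. It measured 371, 299 and 335 CPM in control, 361, 369 and 383 at 0.001 µM and 335, 308 and 385 at 0.01 µM. At 0.1 µM it was at 337, 344 and 355 CPM, and at 1 µM at 337, 338 and 268. The values were 302, 283 and 331 CPM at 10 µM and 270, 266 and 286 at 100 µM, so that every 100 µM library lay below every control.
The slope was -0.081 per 10-fold dose (SE 0.017, adjusted p = 0.0103, edgeR), and it was called under all 31 alternatives. Against control alone the fall at 100 µM did not pass (log2 fold change -0.29, SE 0.10, adjusted p = 0.084), and the 3 controls, 299 to 371 CPM, spread more widely than the treated libraries at 100 µM.

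RPL38 went from 437, 444 and 485 CPM at 0.001 µM to 377, 378 and 382 at 100 µM (slope -0.052, SE 0.013, adjusted p = 0.0256, edgeR), with control at 464, 395 and 414. RPS27 went from 757, 833 and 887 to 675, 695 and 669 CPM (-0.049, SE 0.013, adjusted p = 0.0471), with control at 801, 629 and 753. In both, the 0.001 and 100 µM groups did not overlap. All RPL38 controls lay above the 100 µM libraries, while the RPS27 control at 629 CPM lay below all of them.
RPL37 went from 1266, 1334 and 1435 to 1122, 1144 and 1147 CPM (-0.044, SE 0.011, adjusted p = 0.0272), with control at 1359, 1139 and 1255. RPS21 went from 574, 600 and 640 to 525, 533 and 535 CPM (-0.035, SE 0.008, adjusted p = 0.00706), with control at 594, 530.5 and 550. RPL37A went from 778, 827 and 866 to 726, 736 and 707 CPM (-0.034, SE 0.008, adjusted p = 0.00911), with control at 798, 691 and 787. In RPL37, RPS21 and RPL37A the 100 µM libraries overlapped with control. Against control at 100 µM they did not pass (log2 fold changes of -0.14, -0.073 and -0.070, adjusted p of 0.225, 0.377 and 0.402, edgeR). Nor did RPL38 and RPS27 (-0.16 and -0.099, adjusted p of 0.203 and 0.498). Of 31 alternatives the slope was called under 31 for RPS21, 30 for RPL37A, 27 for RPL38, 21 for RPL37 and 14 for RPS27. Without 0.001 µM replicate 3, or without any 1 library at 100 µM, 4 of the 7 were called (RPS21, RPL37A, RPS29 and RPS28) and RPL37, RPL38 and RPS27 were not. limma called RPS21, RPL38, RPS29 and RPS28. The length class that holds the 7 genes was drawn after the slopes were seen, so no test is given for it.

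Few other genes of that length were called. Of 202 other protein-coding genes with 161 to 300 coding bases and a mean of at least 2 CPM, the median slope was -0.0021, with 7 falling and 5 rising. Among the 72 of them at 64 CPM or more the median was -0.005, with 2 falling and 1 rising. The 8 members of the class had a median of -0.0463. The 7 genes had means over the libraries of 108 CPM (RPS28) to 1249 CPM (RPL37), above both floors. Genes near a floor are harder to call, so these counts are not matched for level. Members of 301 to 400 bases had a median slope of 0.00479 (n = 16, 1 rising) and those of 401 to 600 bases one of -0.00192 (n = 32, 1 rising).
With an offset for coding length the median slope of the 7 genes was -0.0505, against -0.0486 without, and all 7 were called; at 100 µM against control 6 of them were then called, with RPS27 the exception, and RPL11 and RPL9 fell as well.

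The 7 genes were chosen for their slope over these same libraries, so their values by library are a description only. Relative to each gene's mean over the 21 libraries, their median was 0.105, -0.12 and 0.0151 in control and 0.0232, 0.0987 and 0.204 at 0.001 µM. It was 0.0419, -0.0155 and 0.163 at 0.01 µM, 0.0566, 0.0438 and 0.0846 at 0.1 µM, and -0.0218, 0.0102 and -0.195 at 1 µM. It was -0.0286, -0.0578 and 0.0619 at 10 µM and -0.143, -0.122 and -0.138 at 100 µM.
Single genes spread around these medians, from -0.156 to 0.108 in 10 µM replicate 3. The lowest library was 1 µM replicate 3, in which the other 75 members had a median of -0.0055; it was also the 1 µM library with the high RPL17. Without it, all 7 genes still had a called fall over dose, with a median slope of -0.0469. All 3 libraries at 100 µM lay below all others except that library, while the other 75 members, at -0.0045, 0.004 and -0.0226 there, lay within the range of the controls (0.0072, -0.114 and -0.0442).

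**Figure D4:**
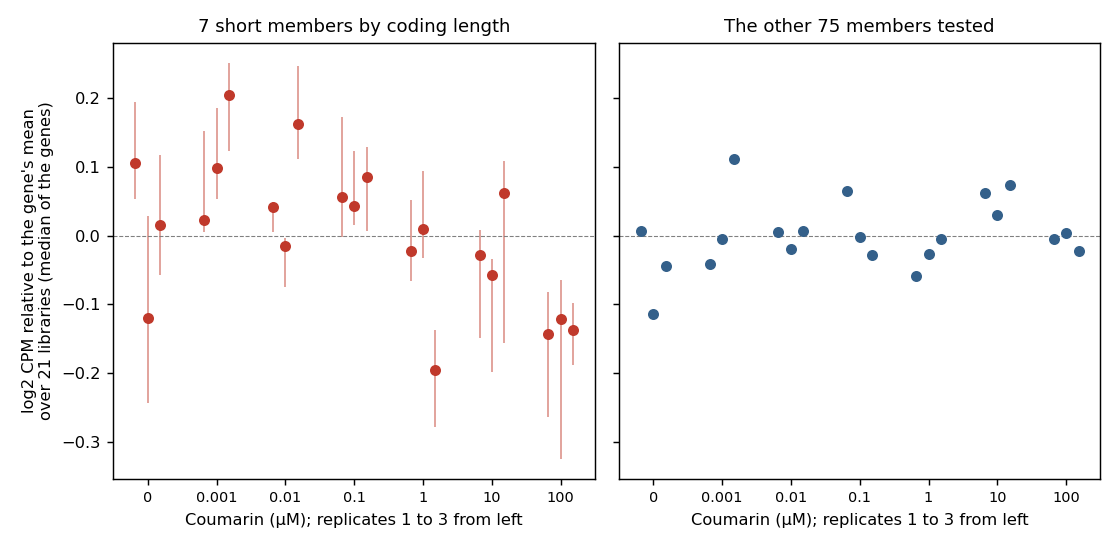
Each point is the median, over the genes of a panel, of log2 CPM relative to the gene's mean over 21 libraries (vertical axis), for each library by coumarin dose (horizontal axis); lines in the left panel run from the lowest to the highest of the 7 genes. The 7 short members lie between -0.143 and -0.122 at 100 µM and at -0.195 in 1 µM replicate 3, and the other 75 members between -0.0226 and 0.004 at 100 µM.

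RPS28 (chromosome 19, 8321158 to 8323340) was the only member that fell both at 100 µM and over dose, and its value depended on where its reads were counted. It measured 112, 110 and 117 CPM in control, 107, 115 and 98.2 at 1 µM, 106, 104 and 97.0 at 10 µM and 98.9, 86.3 and 94.9 at 100 µM, the last without overlap with control (log2 fold change -0.28, SE 0.06, adjusted p = 0.00222, edgeR). The slope over dose was -0.059 (SE 0.0097, adjusted p = 0.000239). Of the reads on RPS28 and its 3 pseudogenes together, 84.0% were counted on RPS28P7, an intronless copy on chromosome 11 (82689559 to 82689768).
RPS28P7 measured 552, 486 and 556 CPM in control and 611, 575 and 545 at 100 µM, overlapping (0.12, SE 0.06, adjusted p = 0.195). With pseudogene counts added to their parent genes, RPS28 was at 645 ± 42 CPM in control and 671 ± 36 at 100 µM (SD, n = 3 each), the log2 fold change was 0.057 (adjusted p = 0.521), and the slope of -0.021 did not pass (adjusted p = 0.166). The other 6 short members kept their called slope in that count.

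**Figure D5:**
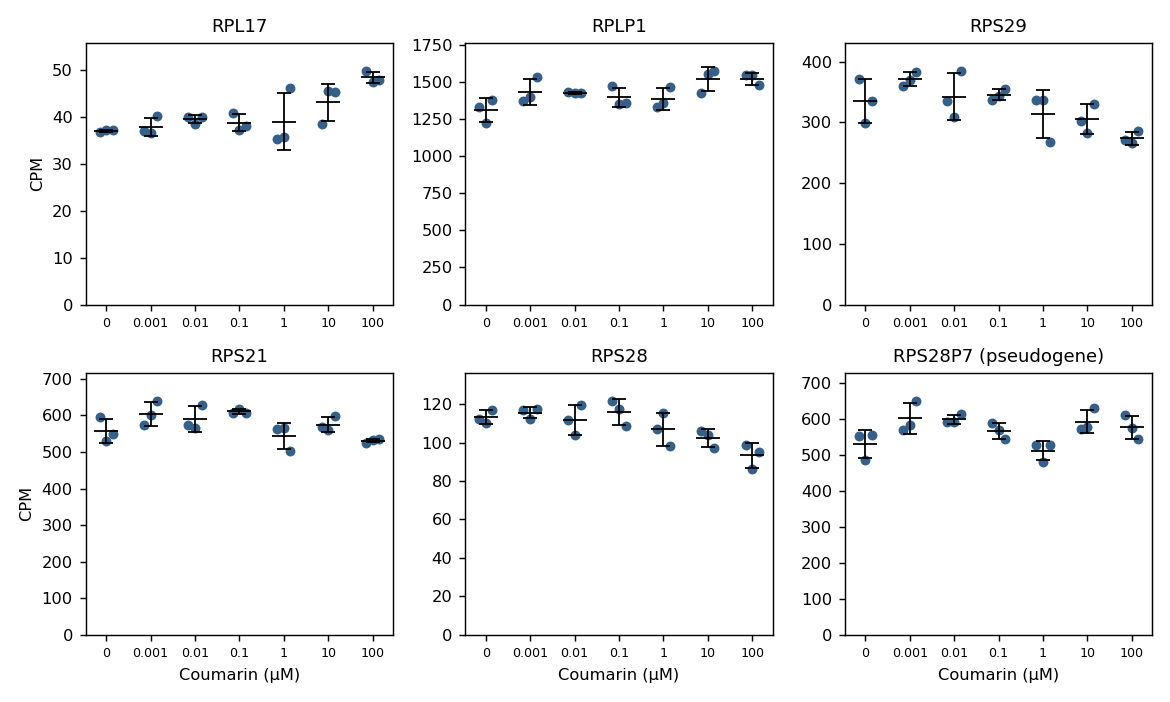
Points are the libraries of each coumarin dose (horizontal axis) at their CPM (vertical axis, from 0), and bars are the mean and SD of 3. RPL17 reached 47.5 to 49.9 CPM at 100 µM, RPS29 fell to 266 to 286, and RPS28 fell while its pseudogene RPS28P7 measured 545 to 611.

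Copies without introns held many reads of a few other members. Of 77 tested members with a processed pseudogene, 3 had more than 50% of the combined reads in pseudogenes (RPS28, RPL9 with 57.8% and RPS10 with 56.5%), 8 had more than 10%, and 50 had less than 1%. Of 1131 pseudogenes, 99 could be tested, and at 100 µM 7 rose and 9 fell, where 3.77% of all genes tested rose and 4.82% fell. RPL12P4, at 2.51 ± 0.26 CPM in control (SD, n = 3), rose to 4.80 ± 0.12 at 100 µM, a log2 fold change of 0.93 (adjusted p = 9.06e-05, edgeR). RPL3P4 fell from 43.4 ± 1.0 to 30.5 ± 1.7 CPM (-0.51, adjusted p = 6.19e-07), RPS24P17 by 0.64 and RPS27AP16 by 0.27 on the log2 scale. Counts of a pseudogene are uncertain, because it and its parent are near-identical. Whether the counting used strand is not given in the sources used here. Of the members, 38 members overlap a gene on the other strand, RPS29, RPS28, RPL17, RPL37A and RPS26 among them.

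Paralogues replace or accompany a core protein in some tissues. RPL22L1, whose transcript is known to be repressed by RPL22 protein, measured 38.5, 38.1 and 35.7 CPM in control and 41.6, 45.7 and 41.1 at 100 µM, without overlap (log2 fold change 0.19, SE 0.05, adjusted p = 0.00766, edgeR), and its slope was 0.029 (adjusted p = 0.0272). That call at 100 µM was lost in 4 of 20 alternatives, among them both the offset for coding length and the scaling on the members themselves, and the slope was lost in 10 of 31. Without 100 µM replicate 2 neither was called. RPL22 was at 244, 223 and 237 CPM in control and 228, 256 and 240 at 100 µM and did not pass (0.044, adjusted p = 0.581).
By level per length, RPL22 was at 53.0 ± 2.4 FPKM and RPL22L1 at 17.2 ± 0.99 (SD, n = 21). RPL26L1 was at 70.8 ± 3.8 FPKM and its partner RPL26 at 38.2 ± 1.6, with exonic lengths of 1164 and 2513 bases. Their coding sequences are both 438 bases long, and in CPM the order was the other way, 80.2 ± 3.9 for RPL26L1 and 93.5 ± 3.9 for RPL26, so the order depends on the length used. RPL26 also overlaps the gene AC135178.2 on the same strand, while RPL26L1 has no such overlap. If shared reads were dropped, RPL26 is understated, so how the 2 compare is uncertain. RPL7L1 was at 38.2 ± 1.4 FPKM beside RPL7 at 556 ± 31, RPL39L at 26.1 ± 1.4 beside RPL39 at 247.5 ± 17.3, and RPS27L at 7.66 ± 0.35 beside RPS27 at 742 ± 67. The last pair has exonic lengths of 9127 and 1035 bases but the same 255 coding bases, and stood at 68.1 ± 2.9 and 748 ± 66 CPM. RPL3L was at 0.0494 ± 0.022 beside RPL3 at 386 ± 15, and RPL10L had its single read beside RPL10 at 226 ± 9.4. RPL26L1, RPL7L1, RPL39L, RPS27L and their partners were not called at 100 µM against control.

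Genes that work with the members were read from lists chosen for this account, whose counts at 100 µM stand beside 3.77% of all genes tested that rose and 4.82% that fell. Outside the naming rule, FAU, which encodes a ribosomal protein fused to a ubiquitin-like protein, the ribosome-bound factor RACK1 and RPL36AL were not called at any dose (edgeR; at 100 µM log2 fold changes of 0.083, -0.021 and -0.026). Of 78 mitochondrial ribosomal protein genes 1 rose at 100 µM, MRPL41 (0.24, adjusted p = 0.0446), and their median was 0.0175 beside 0.0423 for the members and 0.00247 for all genes; MRPL47, MRPL46 and MRPL4 were not called, at -0.19, 0.19 and 0.18. Of 19 tested translation factors with TOP tracts, the elongation factor gene EEF2 rose (0.16, adjusted p = 0.0256) and BTF3 (-0.13, adjusted p = 0.00912) and the initiation factor subunit gene EIF3E (-0.14, adjusted p = 0.0355) fell, with a median of -0.00815.

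Of 59 ribosome biogenesis genes 6 rose and 2 fell at 100 µM (all genes, 3.77% and 4.82%). MYC, the transcription factor that drives ribosome production, measured 416 ± 3.6 CPM in control and 497.5 ± 19.3 at 100 µM (SD over 3 libraries) and rose by 0.26 on the log2 scale (adjusted p = 3.95e-06, edgeR). RRP12 (0.26) and PPAN (0.33), nucleolar assembly factors, also rose and WDR43 fell (-0.20). Of 12 chaperones and import receptors for ribosomal proteins 2 fell (all genes, 4.82%), the importins KPNB1 (-0.13, adjusted p = 0.0108) and IPO7 (-0.15, adjusted p = 0.0245), and IPO5 and IPO9 did not pass (-0.11 and -0.07).

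Of 22 tested regulators of mTORC1 and of TOP messenger RNAs 4 rose and 0 fell at 100 µM (all genes, 3.77% and 4.82%). SESN2, a leucine sensor that restrains mTORC1, measured 12.2 ± 0.71 CPM in control and 32.6 ± 1.5 at 100 µM and so rose by 1.43 on the log2 scale (SE 0.08, adjusted p = 1.52e-15, edgeR). DDIT4, a stress-induced inhibitor of mTORC1, went from 137 ± 11 to 224 ± 8.9 CPM (0.71, adjusted p = 1.59e-05). EIF4EBP1, a repressor of translation that mTORC1 switches off, rose by 0.31 and RPS6KB2, an S6 kinase, by 0.17 on the log2 scale. Of 4 genes in a list drawn around MDM2, 2 rose and 0 fell at 100 µM (all genes, 3.77% and 4.82%). Among them CDKN1A, an inhibitor of the cell cycle, went from 25.2 ± 1.4 to 33.9 ± 0.50 CPM (0.43, adjusted p = 3.71e-05, edgeR). Whether it rose through MDM2 or free ribosomal proteins was not tested. MDM2 (-0.07) and MDM4 (-0.03) did not pass. At 10 µM and below, none of the genes in these lists was called other than 2 pseudogenes that rose at 10 µM.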

How the data were processed

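The authors deposited whole-number counts per gene for 21 libraries, with no normalization, and FPKM computed from them by gene length. Per the submitters' processing notes, HISAT2, DESeq2 and the build GRCh38 were used, in steps the notes as seen here do not give. Which tool counted reads, and whether by strand, is not given in the sources used here. Gene IDs and coordinates of the deposited table equal those of GENCODE 29, from which coding lengths were taken. Members and gene lists were chosen with earlier results of these data known, and so was robust estimation.

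Counts were filtered (filterByExpr), TMM-scaled and fitted in 1 model of 7 groups with edgeR 4.0.16 (quasi-likelihood, robust; R 4.3.3, 14 residual degrees of freedom). Each dose was tested against 0 µM, and the 7 groups and a linear slope over log10 dose among treated groups were also tested, with Benjamini-Hochberg adjustment over 16196 genes. CPM are TMM-scaled. Libraries of the same group did not agree within counting noise, with a chi-square of 2.68 to 12.2 per degree of freedom. The design text calls the replicates biological and names no separate cultures; p-values measure the spread between these samples. The fits were tested on simulated data. Named members were those called in any comparison, the 10 smallest p over the groups, the 12 highest and 6 lowest by FPKM, and the paralogues with their partners; of each list, up to 4 members with the smallest p at 100 µM and all members of lists of 6 or fewer. A few genes that this rule names are not reported here. Alternatives were DESeq2 1.42.0, limma 3.58.1 on log2(FPKM + 1), and those of the closing section. Figures were drawn with matplotlib 3.10.9.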

Additional observations from a re-analysis of the deposited data

How the results depend on the processing

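The number of members called at 100 µM, 7 in the analysis above, was 11 with total counts in place of TMM, 15 with no filter on low counts, 12 with the coding length offset, 11 in a fit of the 6 libraries compared, 12 with DESeq2 and 4 with limma on FPKM. Of all genes tested, 8.58% were called in the analysis above. The alternatives, in the same order, called 8.33%, 4.19%, 9.68%, 9.46%, 9.54% and 7.43% of all genes. With the coding length offset 4 rose and 8 fell, against 6 and 1 in the analysis above. At 10 µM, 1 became 23 with no filter, 8 with DESeq2 and 0 with scaling on the summed members, the coding length offset, no robust estimation or limma. All genes at 10 µM were at 0.321% in the analysis above, 0.894% with no filter and 0.957% with DESeq2. They were at 0.154% to 0.624% in the settings with 0 members. Over the 7 groups, 6 became 33 with no filter, 13 with DESeq2 and 2 with member scaling or limma. All genes there were at 4.65% in the analysis above, 4.19% with no filter and 7.03% with DESeq2. They were at 2.33% with member scaling and 3.16% with limma. For the slope, no setting moved the count of 9 (all genes, 4.45%) by over 1.5 times other than leaving out a library. At the 4 low doses, 0 became 2 with no filter (all genes, 0.00592% to 0.0592%). The cause was not tested in any of these.

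Leaving out each library in turn gave 3 to 10 members at 100 µM (3 without 100 µM replicate 2), 0 to 2 at 10 µM (0 without control replicate 2 or 10 µM replicate 3), 1 to 9 over the groups (1 without 100 µM replicate 1 or 3), 5 to 10 for the slope (5 without 100 µM replicate 2) and 0 at the low doses. The same fits called 4.24% to 9.72% of all genes at 100 µM and 0.0424% to 0.358% at 10 µM. Over the groups they called 2.19% to 6.93%, for the slope 2.79% to 5.02%, and at the low doses at most 0.00606%. The medians of the members ranged then from 0.032 to 0.113, 0.0214 to 0.0879, 0.0283 to 0.1, -0.0194 to 0.0483, 0.0836 to 0.146 and 0.00316 to 0.0707 from the lowest to the highest dose. Scaling on the summed members set the medians at 0.001, 0.01, 0.1, 10 and 100 µM to -0.0109, -0.00544, 0.00402, 0.000358 and 0.00287, by its construction. The gene length offset gave 0.0299, 0.077 and 0.0207 at 0.01, 10 and 100 µM, and the coding length offset 0.0193, 0.0576 and -0.000134. Total counts gave 0.082 at 10 µM. RPS28 at 100 µM turned from -0.28 to 0.0567 with pseudogene counts added, since most reads of the pair were counted on RPS28P7. No other called member changed direction in the alternatives run.

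The replicate numbers showed no clear pairing of the samples, though this check cannot exclude one. In their deviations, 13 of 63 same-number pairs of libraries correlated over 0.1, and 8 of 21 libraries correlated best with their own number. The median correlation was 0.017 for the same number, with a highest of 0.318, and 0.001 for different numbers. A replicate block gave 8 members at 100 µM, 1 at 10 µM, 8 over the groups, 8 for the slope and 0 at low doses. In the same order, that fit called 8.34%, 0.432%, 4.45%, 4.32% and 0.00% of all genes. With the gene length offset and the replicate block together the medians at 0.01, 10 and 100 µM were 0.0298, 0.0777 and 0.0208. RPL10L and RPL3L, with 1 and 98 reads over all libraries, could not be tested. RPS10 was tested with 2862 reads, and what kept its count low was not tested.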
